A study of Mus musculus with 12 samples.

Results

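Cyclins are proteins whose levels switch the cyclin-dependent kinases (CDKs) on, and the pair then moves a cell through its division cycle. The genes described here are 7 cyclins (Ccnd1, Ccnd2, Ccnd3, Ccne1, Ccne2, Ccna2 and Ccnb1) and 3 kinases (Cdk2, Cdk4 and Cdk6), taken by name from a table of 57683 genes. All 10 were found as 1 row each, and all 10 were among the 14734 genes left after low counts were removed. The table comes from polyadenylated RNA of wild-type FVB/NJ mouse hearts, from females of 12 weeks. Per the protocol, 3 hearts were digested with collagenase by Langendorff perfusion, cardiomyocytes were parted from the other cells by gravity, and their RNA was taken at once. Nonmyocytes of the same dissociation were grown in culture, mostly into fibroblasts, before their RNA was taken. The labels call that culture P1 in one place and speak of 2 passages in another. There are 3 libraries for cardiomyocytes and 3 for nonmyocytes, nothing says that equal numbers share a heart, and p-values therefore reflect how far these libraries scatter, part of which may be technical. The cardiomyocytes were fresh and the nonmyocytes cultured, so the effects of culture and of cell type cannot be told apart.

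D-type cyclins pair with Cdk4 and Cdk6 early in the cycle and phosphorylate the retinoblastoma protein, which frees E2F transcription factors. E-type cyclins with Cdk2 then start DNA replication, cyclin A2 serves replication and the approach to mitosis, and cyclin B1 drives mitosis. Heart muscle cells of adult mice have largely left the cycle, while fibroblasts put in culture divide.

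Total counts ranged between 5956831 and 26851830 for cardiomyocytes and between 8126422 and 10792544 for nonmyocytes. Levels are given as CPM, a gene's count relative to the size of its library after TMM scaling. TMM adjusts library sizes for differences in composition, assuming that most genes do not differ or that differences balance. Cardiomyocyte library 1 was the shallowest and stood apart in red cell transcripts, with 605 CPM summed over 5 erythroid markers against 88.3 and 12.7 CPM in libraries 2 and 3. The cardiomyocyte and fibroblast markers followed the labels, while most endothelial markers, given further below, were higher in cardiomyocytes. The 7 cardiomyocyte markers summed to 123719 to 165396 CPM in cardiomyocytes and 887 to 1183 CPM in nonmyocytes, and the 8 fibroblast markers to 184 to 241 CPM in cardiomyocytes and 8265 to 9868 CPM in nonmyocytes.

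Of the 10 genes, 9 were lower in cardiomyocytes, none was higher, and Cdk2 was not called (edgeR quasi-likelihood test, two-sided, Benjamini-Hochberg adjusted p under 0.05 over all genes tested). Over all genes tested, 32.1% were lower and 31.6% higher in cardiomyocytes. These 9 genes had every cardiomyocyte library below every nonmyocyte library, which was so for 36.3% of all genes tested. The median log2 fold change, cardiomyocyte minus nonmyocyte, was -2.59 over the 10 genes and -0.02 over all genes tested. All 10 estimates were below 0, those of the called genes between -3.61 for Ccnb1 and -0.80 for Ccnd3, and no gene of the set was called higher under any of 15 alternative settings, DESeq2 and limma included. Tested against a 2-fold change, 7 of the 10 were lower, against 20.3% of all genes. In bulk RNA, fewer cells that express a gene and less RNA per cell cannot be told apart.

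**Figure D1:**
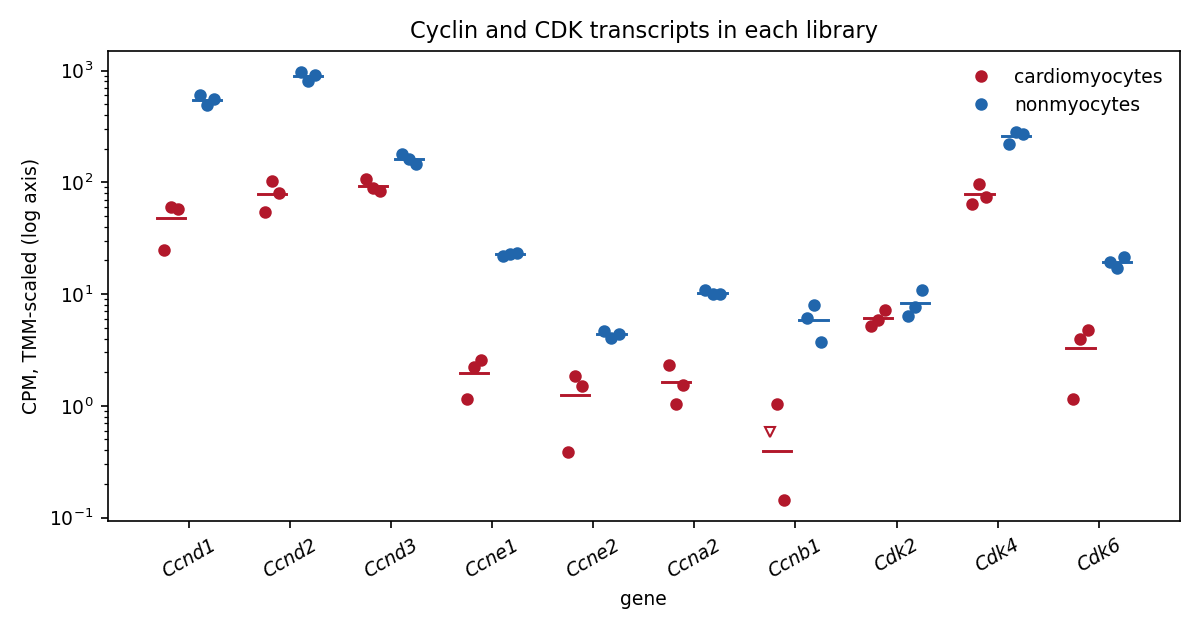
CPM (log axis) of each gene in each library, with cardiomyocytes left and nonmyocytes right, points for libraries and bars for group means. The open triangle is Ccnb1 in cardiomyocyte library 1, which had 0 counts and is drawn at the 0.581 CPM that 3 counts would give. The groups overlap for Cdk2 and for no other gene.

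The D-type cyclins were the most abundant cyclins of the set in both fractions. Ccnd1, the cyclin best known as a target of growth factor signals, had 25, 60.7 and 57.2 CPM in cardiomyocytes and 604, 489 and 559 CPM in nonmyocytes. Its log2 fold change was -3.51 ± 0.28 (SE; adjusted p by edgeR = 1.93e-07), with cardiomyocytes at a mean of 8.65% of the nonmyocyte level. The groups stood far apart, and cardiomyocyte library 1 was the lowest of all. Ccnd1 lies on chromosome 7 (152115836 to 152125774, mm9, minus strand).

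Ccnd2, on chromosome 6 (127080253 to 127101046, minus strand), had nearly the same fold change as Ccnd1. It had 54.4, 102 and 79.7 CPM in cardiomyocytes and 968, 809 and 912 CPM in nonmyocytes, a log2 fold change of -3.50 ± 0.23 (adjusted p by edgeR = 2.46e-08). Ccnd3, the D-type cyclin of many differentiated tissues, on chromosome 17 (47730491 to 47736632, plus strand), had the smallest estimated fold change among the cyclins. It had 107, 89.3 and 84.3 CPM in cardiomyocytes and 179, 163 and 145 CPM in nonmyocytes. The groups did not overlap, and the log2 fold change was -0.80 ± 0.16 (adjusted p by edgeR = 8.31e-04). Tested against a 2-fold change, its decrease was not called (edgeR glmTreat adjusted p = 0.922).

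The make-up of the D-type transcripts also set the fractions apart. Per kb of exon, Ccnd3 held 52.4%, 32.1% and 35.7% of the D-type counts in cardiomyocytes and 9.06%, 9.82% and 7.91% in nonmyocytes. Ccnd2 held 41.5%, 57.1% and 52.3% in cardiomyocytes and 75.8%, 75.6% and 77% in nonmyocytes. Ccnd1 held 6.09%, 10.8% and 12% in cardiomyocytes and 15.1%, 14.6% and 15.1% in nonmyocytes. The ranges of the fractions did not overlap for any of these shares, and the difference was given no test. Ccnd3 was the leading D-type transcript in cardiomyocyte library 1, and Ccnd2 in the other 5 libraries, an order that depends on length. Without length correction Ccnd3 led in cardiomyocyte library 3 as well and in the cardiomyocyte mean, at 43.6% against 35.3% for Ccnd2. These shares are within a library, so they do not depend on how libraries were scaled to each other. They do depend on exon length, which the annotation puts at 3835, 1225 and 1899 bases for Ccnd1, Ccnd2 and Ccnd3.

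**Figure D2:**
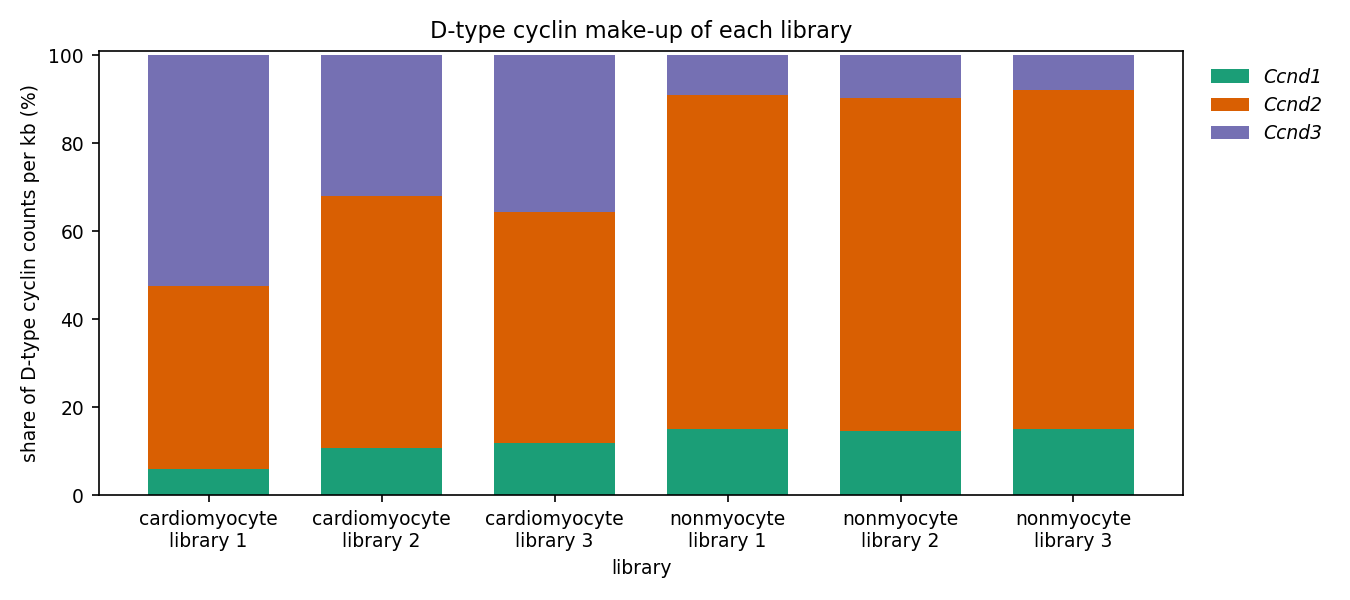
Share (%) of each D-type cyclin in the D-type counts per kb of exon, 1 bar per library, cardiomyocytes left. The Ccnd3 part takes 32.1% to 52.4% of the cardiomyocyte bars and 7.91% to 9.82% of the nonmyocyte bars.

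The partner kinases of the D-type cyclins were both lower in cardiomyocytes, with smaller estimates than Ccnd1 and Ccnd2, though differences between genes were not tested. Cdk4, on chromosome 10 (126500590 to 126504976, plus strand), had 64.1, 96.5 and 73.8 CPM in cardiomyocytes and 218, 284 and 269.7 CPM in nonmyocytes. Its log2 fold change was -1.71 ± 0.19 (adjusted p by edgeR = 4.28e-06), with cardiomyocytes at 30.4% of the nonmyocyte mean. Cdk6, its close relative on chromosome 5 (3344312 to 3522225, plus strand), had 1.16, 3.94 and 4.75 CPM in cardiomyocytes and 19.3, 17.1 and 21.3 CPM in nonmyocytes. The log2 fold change of Cdk6 was -2.44 ± 0.38 (adjusted p by edgeR = 9.89e-05). Cdk4 was the leading kinase of the pair in every library. Per kb of exon the ratio of Cdk4 to Cdk6 was 41.9, 18.6 and 11.8 in cardiomyocytes and 8.59, 12.6 and 9.64 in nonmyocytes. The ratios of the fractions overlap, and the highest rests on 6 counts of Cdk6 in cardiomyocyte library 1. Without that library the cardiomyocyte mean was 15.2, against 24.1 with it, and with the longest transcript as length it was 38.2.

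Cdk2, the partner of cyclins E and A, was the one gene whose libraries overlapped between the fractions. It had 5.23, 5.85 and 7.13 CPM in cardiomyocytes and 6.42, 7.63 and 10.9 CPM in nonmyocytes. The log2 fold change was -0.44 ± 0.33 (adjusted p by edgeR = 0.264), which does not show that the levels are alike. Scaled by library totals alone it was called lower, at -1.13 (adjusted p by edgeR = 0.00804), and so were all 10 genes, against 48.2% of all genes tested. Over 15 alternatives the log2 fold change of Cdk2 ran from -1.13 to -0.15 and its adjusted p by edgeR, DESeq2 or limma from 0.00804 to 1. Scaling by library totals moves the median log2 fold change of all genes to -0.70 and the share of higher genes among all those called to 30.9%, against 49.6%. Cdk2 lies on chromosome 10 (128135645 to 128142059, minus strand), and 44.1% of its exon bases are shared with 2 lncRNA genes of the same strand.

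Its E-type partners were both lower in cardiomyocytes. Ccne1, on chromosome 7 (38883003 to 38892553, minus strand), had 1.16, 2.23 and 2.57 CPM in cardiomyocytes and 21.9, 22.7 and 23.3 CPM in nonmyocytes. Its log2 fold change was -3.41 ± 0.32 (adjusted p by edgeR = 7.94e-07), close to those of Ccnd1 and Ccnd2. Ccne2, on chromosome 4 (11118498 to 11131926, plus strand), had 0.387, 1.86 and 1.5 CPM in cardiomyocytes and 4.7, 4.06 and 4.42 CPM in nonmyocytes. The log2 fold change of Ccne2 was -1.68 ± 0.52 (adjusted p by edgeR = 0.0122). Against a 2-fold change Ccne2 was not called (edgeR glmTreat adjusted p = 0.082). Per kb of exon the ratio of Ccne1 to Ccne2 was 3.94, 1.57 and 2.24 in cardiomyocytes and 6.13, 7.35 and 6.91 in nonmyocytes, ranges that do not overlap. The cardiomyocyte ratios rest on 2, 36 and 31 counts of Ccne2.

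The cyclins of the later cycle were scarce in cardiomyocytes. Ccna2, on chromosome 3 (36463788 to 36471072, minus strand), had 12, 20 and 32 counts in cardiomyocytes and 146, 104 and 129 counts in nonmyocytes. Mean levels were 1.64 ± 0.649 CPM in cardiomyocytes and 10.3 ± 0.501 CPM in nonmyocytes (SD, n = 3). Its log2 fold change was -2.75 ± 0.39 (adjusted p by edgeR = 4.52e-05). Among the cardiomyocyte libraries, Ccnd1, Ccnd2, Ccne1 and Ccne2 were lowest in library 1. Ccna2 was highest there, at 2.32 CPM against 1.04 and 1.55 CPM in libraries 2 and 3. So was the D-type gene Ccnd3, at 107 CPM against 89.3 and 84.3 CPM. Ccnb1, on chromosome 13 (101548687 to 101556525, minus strand), had 0, 20 and 3 counts in cardiomyocytes and 81, 82 and 48 counts in nonmyocytes. These equal 0, 1.04 and 0.145 CPM in cardiomyocytes and 6.05, 7.92 and 3.73 CPM in nonmyocytes, and a count of 0 in library 1 allows up to 0.581 CPM. Library 2 thus held most of the Ccnb1 counts of the cardiomyocytes. The log2 fold change was -3.61 ± 0.74 (adjusted p by edgeR = 8.71e-04), and -5.59 without cardiomyocyte library 2 (adjusted p by edgeR = 1.44e-04). Over 15 alternatives its adjusted p ran from 8.22e-08 to 0.00773 (edgeR, DESeq2 or limma).

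**Figure D3:**
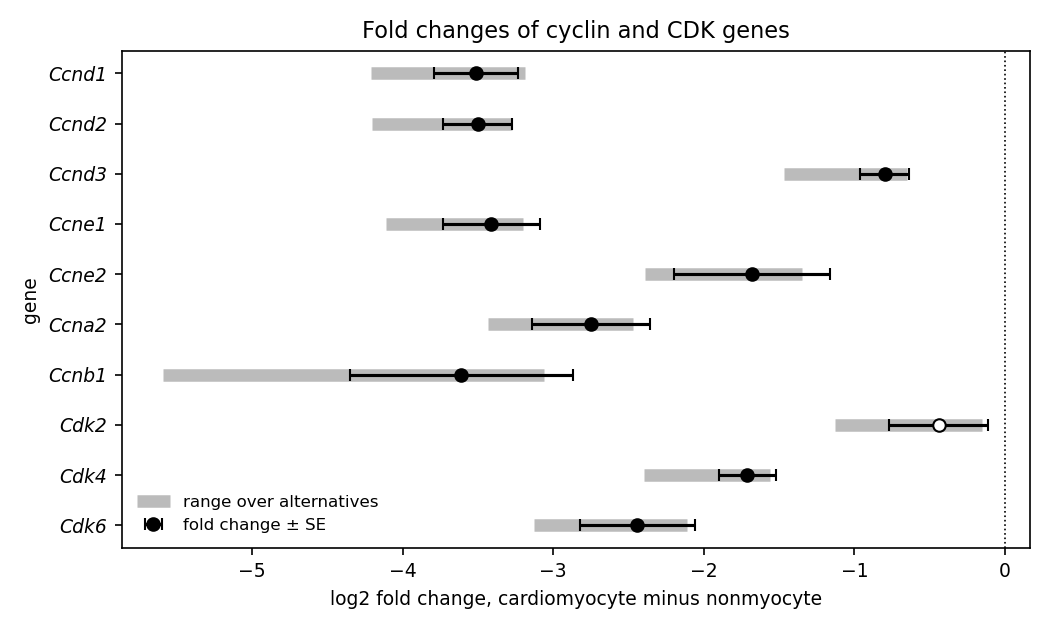
Log2 fold change of each gene, cardiomyocyte minus nonmyocyte, with its SE (filled where called, open for Cdk2) over the range of 15 alternative settings (grey). All ranges lie below 0, and that of Ccnb1 is the widest, from -5.59 to -3.06.

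Promoter sequences of RefSeq (GRCm38.p6, 250 bases before to 50 after the start) were at hand for 6 of the 10 genes, in 7 windows. The 150 bases before the start are shown for Ccnb1, the gene with the most negative estimate, and for Cdk2, which was not called. Motifs searched on both strands were CCAAT, the box bound by NF-Y, TTTGAA, known as the cell cycle homology region, and the E2F-type sites TTTCGCGC, TTTGGCGC, TTTCCCGC and TTTGGCGG. Capitals mark the matches, CCAAT in both genes and, in Cdk2, the E2F-type site TTTCCCGC read on the opposite strand as GCGGGAAA.
Ccnb1 (chr13:100786487-100786636, minus strand): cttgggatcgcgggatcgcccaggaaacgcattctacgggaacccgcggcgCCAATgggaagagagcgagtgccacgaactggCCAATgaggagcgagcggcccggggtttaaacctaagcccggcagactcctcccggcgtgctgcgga
Cdk2 (chr10:128705052-128705201, minus strand): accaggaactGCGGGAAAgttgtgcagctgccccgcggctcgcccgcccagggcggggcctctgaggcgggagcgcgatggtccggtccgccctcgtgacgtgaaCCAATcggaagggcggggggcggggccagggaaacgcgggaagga

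Ccnb1 holds CCAAT at 2 places, and Cdk2 and 1 of the 2 Ccnd3 windows hold it once. A CCAAT stands in 37.4% of 32851 mouse promoter windows of this length, a TTTGAA in 17.9% and a TTTCCCGC in 1.07%. The other E2F-type sites stand in 0.323% (TTTCGCGC), 0.514% (TTTGGCGC) and 0.56% (TTTGGCGG) of windows. No searched motif was found in the windows of Ccne1, Cdk4 and Cdk6 or in the other Ccnd3 window, which says only that these letters are not in these windows.

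Levels can be ordered between genes once divided by exon length. In cardiomyocytes the order, from high to low, was Ccnd2, Ccnd3, Cdk4, Ccnd1, Cdk2, Cdk6, Ccne1, Ccna2, Ccne2 and Ccnb1. Mean levels ran from 64.3 ± 19.5 CPM per kb for Ccnd2 to 0.0952 ± 0.136 CPM per kb for Ccnb1 (SD, n = 3). Ccnd2 and Ccnd3 overlapped in their libraries, and so did each neighbouring pair from Cdk6 down to Ccnb1. Ccnd3, Cdk4, Ccnd1, Cdk2 and Cdk6 were parted from one another without overlap. With the longest transcript as length, however, Ccnd3 and Cdk4 overlapped. In nonmyocytes Ccnd2 led at 732 ± 65.7 CPM per kb, and Ccnd1 came second at 144 ± 15.2 CPM per kb. Then followed Ccnd3, Cdk4, Ccne1, Cdk6, Cdk2, Ccna2, Ccnb1 and Ccne2, the last at 1.26 ± 0.0924 CPM per kb (SD, n = 3). Ccnd3 and Cdk4, Ccne1 and Cdk6, and Ccnb1 and Ccne2 were neighbours that overlapped. Ccnd1 thus ranked below Ccnd3 and Cdk4 in cardiomyocytes and above both in nonmyocytes.

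**Figure D4:**
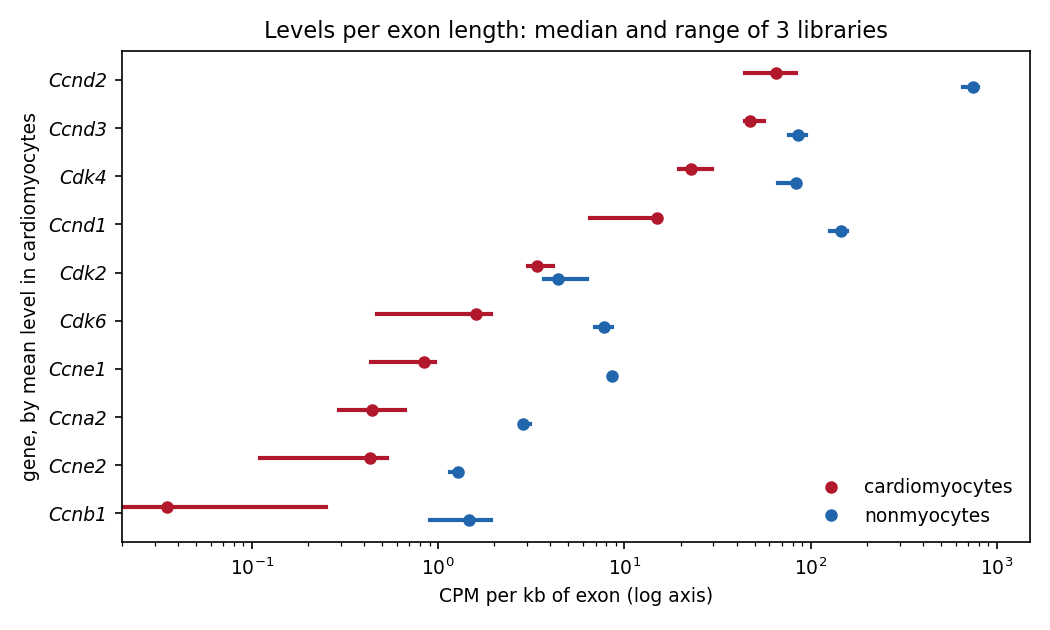
CPM per kb of exon (log axis) of each gene, with the median (point) and range (line) of 3 libraries, cardiomyocytes above and nonmyocytes below. The Ccnb1 line of cardiomyocytes starts at 0, which lies off the axis, and the distance between the fractions is smallest for Cdk2 and Ccnd3.

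Counts of genes that share exon bases with other genes may be incomplete. All 421 protein-coding genes whose exon bases all lie in other annotated genes stood at 0 in the 6 libraries, against 28.1% of 11005 that share no base. The genes Ccnd2, Ccnd3, Ccne1 and Ccnb1 share no exon base. The shares of the others were 21.3% for Ccnd1, 19.7% for Cdk4, 17.4% for Ccne2, 14.6% for Ccna2 and 4.45% for Cdk6, beside the 44.1% for Cdk2. The coding neighbours on the opposite strand were Oraov1 for Ccnd1, Tspan31 for Cdk4, Ints8 for Ccne2 and Exosc9 for Ccna2. All 4 neighbours were lower in cardiomyocytes too, at log2 fold changes of -0.79, -1.17, -1.01 and -1.12 in that order (highest adjusted p by edgeR = 0.0291, for Oraov1). The libraries do not keep the strand, so reads of these pairs could be parted only by position. The pseudogene Ccnd3-ps was counted apart, at 5.42, 3.83 and 5.19 CPM in cardiomyocytes and 7.54, 6.09 and 8.77 CPM in nonmyocytes, and reads may fall on either copy.

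Other cell types were traced by their markers. In cardiomyocytes the 8 fibroblast markers summed to 2.38% of the nonmyocyte level, a sum made up mostly of Col1a1 and Col1a2 in nonmyocytes. One by one their log2 fold changes ran from -6.05 (Col1a1) to -2.42 (Dcn), so they overlap those of the cyclin and CDK genes. Dcn averaged 28.2 CPM in cardiomyocytes and 147 CPM in nonmyocytes, and Col3a1 35.3 CPM in cardiomyocytes and 449 CPM in nonmyocytes. The 10 cyclin and CDK genes stood in cardiomyocytes at 6.68% (Ccnb1) to 72.9% (Cdk2) of their nonmyocyte level. The 8 endothelial markers summed to 439.6 to 928 CPM in cardiomyocytes, a mean of 782% of the nonmyocyte level, and 6 of them were higher in cardiomyocytes. Pecam1, one of the 8, stood at 0 in nonmyocytes and at most at 0.155 CPM in cardiomyocytes, but 81.1% of its exon bases are shared with other genes, so its counts may be incomplete. The 8 smooth muscle and pericyte markers summed to 486 to 746 CPM in cardiomyocytes and 6749.6 to 8338 CPM in nonmyocytes. The cardiomyocyte mean was 8.66% of the nonmyocyte level, a sum made up mostly of Acta2 in nonmyocytes (6357 CPM). One by one 5 were lower and 3 higher in cardiomyocytes. Of the higher ones, Rgs5 averaged 142 CPM in cardiomyocytes and 4.16 CPM in nonmyocytes, and Kcnj8 14.3 and 0.114 CPM. The other, Cspg4, averaged 36.9 and 21.1 CPM, in that order. The 7 macrophage markers summed to 42.4 to 49.8 CPM in cardiomyocytes and 93.5 CPM or more in nonmyocytes. Only Cd68 and Csf1r among them were called lower in cardiomyocytes, and none was called higher. The erythroid sum of nonmyocytes was 1.63 to 3.96 CPM. The part of such cells in the cyclin and CDK levels of cardiomyocytes was not tested. In nonmyocytes the cardiomyocyte markers stood at 0.694% of the cardiomyocyte level.

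The rest of the pathway was read from 7 further lists of genes with 105 tested members, of which 56 (53.3%) were lower and 15 (14.3%) higher in cardiomyocytes, against 32.1% and 31.6% of all genes tested. The other cyclins of the division cycle and Cdk1, the mitotic kinase listed under its older symbol Cdc2a, were lower in 3 of 3 tested cases, at a median log2 fold change of -4.23. Cdc2a had 3.1, 2.18 and 2.62 CPM in cardiomyocytes and 41.9, 50.1 and 46.6 CPM in nonmyocytes, a log2 fold change of -4.18 ± 0.25 (adjusted p by edgeR = 1.03e-08). Ccnb2, the second B-type cyclin, had 0, 1.86 and 0.63 CPM in cardiomyocytes and 24.7, 33.6 and 25.9 CPM in nonmyocytes, a log2 fold change of -4.78. The pattern over the cardiomyocyte libraries was that of Ccnb1, with none in library 1 and most in library 2. For Ccnb2 it rests on 0, 36 and 13 counts, and 0 counts in the shallow library 1 allow up to 0.581 CPM. Ccna1 and Ccnb3, which are best known from germ cells, held too few counts to be tested.

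**Figure D5:**
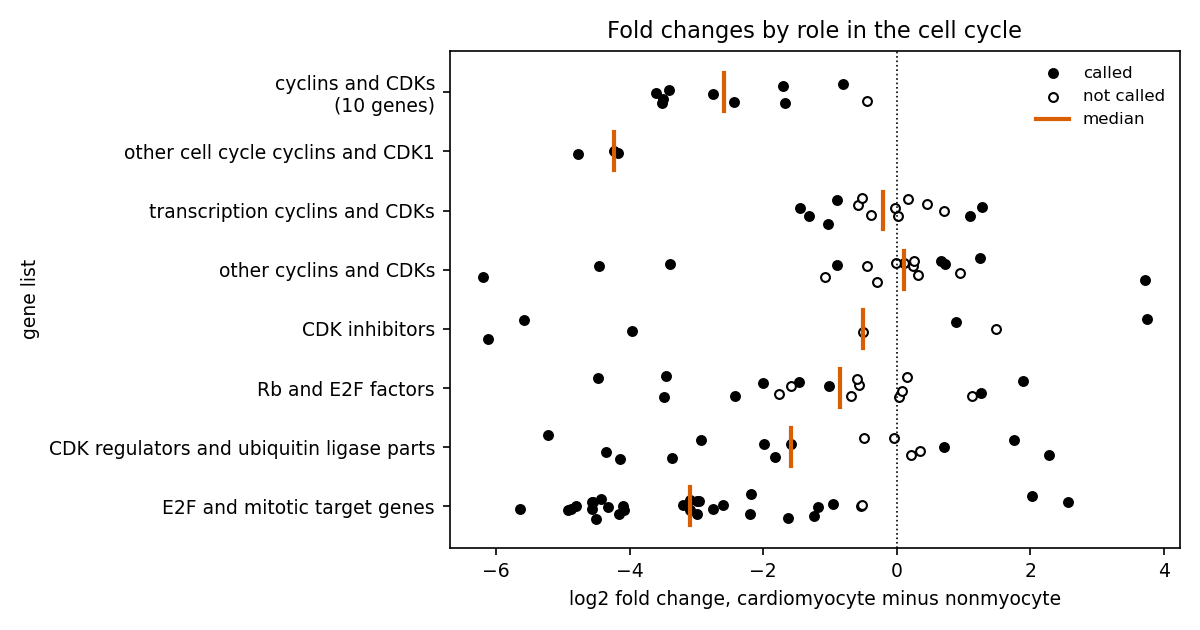
Log2 fold changes, cardiomyocyte minus nonmyocyte, of the 10 cyclin and CDK genes and of 7 lists of pathway genes, 1 point per tested gene (filled where called), with list medians in orange. The medians of transcription cyclins and CDKs (-0.20) and of other cyclins and CDKs (0.10) lie near 0, and that of E2F and mitotic target genes lies at -3.10.

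Cyclins and CDKs that act on transcription were lower in 4 of 14 cases (28.6%) and higher in 2 (14.3%), at a median of -0.20. Of all genes tested 32.1% were lower and 31.6% higher. With library totals 9 of the list were lower, where 48.2% of all genes tested were. Tested against a 2-fold change 0 were lower and 1 higher, where 20.3% of all genes were lower and 3023 of 14734 higher. Without cardiomyocyte library 1 there were 4 higher (edgeR), where 5367 of all 15828 genes tested in that fit were. The largest fall was that of Ccnc, the cyclin of the Mediator complex, at -1.45 ± 0.51, a call lost without either of 2 libraries (highest adjusted p by edgeR = 0.127). Ccnt2, a partner of Cdk9 in transcript elongation, rose by 1.10 and Ccnl2, a cyclin tied to splicing, by 1.27. Cdk9 itself was lower, at -1.32 ± 0.21 (adjusted p by edgeR = 1.36e-04). The most abundant of the list was the kinase gene Cdc2l1, at 106 ± 7.52 CPM in cardiomyocytes and 137 ± 22.1 CPM in nonmyocytes (SD, n = 3), which was not called. Among 17 other cyclins and CDKs 4 were lower and 4 higher (23.5% each), at a median of 0.10. Of all genes tested 32.1% were lower and 31.6% higher. With library totals 9 of the list were lower and 2 higher. Over all 14734 genes tested 48.2% were lower and 3177 genes higher in that setting. Against a 2-fold change 1 of the list was higher, where 3023 of all genes tested were. Ccng1, a target of the tumour suppressor p53 and the most abundant there, had 579.6 ± 149 CPM in cardiomyocytes and 543 ± 93.2 CPM in nonmyocytes and was not called (0.10), but was called lower with library totals (-0.58). Pctk1 rose at 0.66, but stood at -0.01 with library totals. The largest rise was that of Ccnjl, at 3.72 ± 0.60. The largest fall was that of Pftk2, with 1 count over the cardiomyocyte libraries and a ratio of nonmyocyte over cardiomyocyte levels of 105 (95% interval 18.3 to 4181, counting error only).

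Of 7 CDK inhibitors 3 (42.9%) were lower and 2 (28.6%) higher, against 32.1% and 31.6% of all genes tested. The list median was -0.50, and 1 inhibitor was higher with library totals or against a 2-fold change. Of all 14734 genes tested 3177 and 3023 were higher in these settings, in that order. Cdkn1a, the inhibitor induced by p53, had 163, 52.6 and 49.6 CPM in cardiomyocytes and 1451, 1368 and 1277 CPM in nonmyocytes. Cardiomyocyte library 1 was the highest of its group for Cdkn1a, whereas it was the lowest for Ccnd1 and Cdk6. Cdkn2a and Cdkn2b, which code for inhibitors of Cdk4 and Cdk6, fell furthest, with log2 fold changes of -6.12 ± 0.25 and -5.58 ± 0.26 (highest adjusted p by edgeR = 9.51e-10). The nonmyocyte libraries thus held more transcripts of these 2 genes as well as more of Cdk4 and Cdk6, all counted per gene. Cdkn1c rose by 3.74 ± 0.56 in cardiomyocytes, at 9.88, 24.3 and 20.7 CPM there and 1.72, 0.193 and 2.1 CPM in nonmyocytes. Cdkn1b, a broad inhibitor of cyclin E and A kinases, rose by 0.89 ± 0.18, a call lost with library totals (0.21). Cdkn2c (-0.50) and Cdkn2d (1.49) were not called.

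Among genes of the Rb and E2F families 7 of 18 (38.9%) were lower and 2 (11.1%) higher, at a median of -0.85. Of all genes tested 32.1% were lower and 31.6% higher. With library totals 11 of the list were lower, where 48.2% of all genes tested were. Against a 2-fold change 1 of the list was higher, where 3023 of all 14734 genes tested were. E2f1, an activator of replication genes, fell furthest, at 3.87, 3.21 and 1.07 CPM in cardiomyocytes and 59, 56.1 and 50.8 CPM in nonmyocytes. Of the pocket proteins, which hold E2F factors in check, Rb1 was not called (0.03 ± 0.29). Its relative Rbl2 rose by 1.26 ± 0.24, while Rbl1 fell (-2.01 ± 0.54). The E2F partner genes parted as well, with Tfdp2 rising by 1.89 ± 0.19 and Tfdp1 falling at -1.47 ± 0.26. The most abundant of the list were these 2 genes, with means over all libraries of 35.7 CPM for Tfdp2 and 37.6 CPM for Tfdp1.

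Regulators of CDK activity and of cyclin destruction were lower in 8 of 15 (53.3%) and higher in 3 (20%), at a median of -1.58. Of all genes tested 32.1% were lower and 31.6% higher. Under library totals or against a 2-fold change 1 regulator was higher. Of all 14734 genes tested 3177 and 3023 were higher in these settings, in that order. The list mixes activators with inhibitors, such as the kinase Wee1, which switches CDKs off, and Fbxo5 (-1.83), which holds back the ligase that destroys mitotic cyclins. The call of Fbxo5 was lost in 2 of 6 fits that left out a library (highest adjusted p by edgeR = 0.0738). Cdc20, which activates the ubiquitin ligase that destroys cyclin B in mitosis, fell by 4.35 on the log2 scale, while Fzr1, the activator used outside mitosis, rose by 0.70 ± 0.20. The call of Fzr1 was lost with library totals (0.04). Fbxw7, which marks cyclin E for destruction, rose by 2.28 ± 0.20, at 76.5, 88.2 and 99.1 CPM in cardiomyocytes and 21.9, 17.3 and 15.2 CPM in nonmyocytes. The largest fall was that of the phosphatase gene Cdc25c, which had 5 counts over the cardiomyocyte libraries and 155 over the nonmyocyte libraries. Wee1 was called higher (1.75 ± 0.72, adjusted p by edgeR = 0.0485) with overlapping libraries and 79.8% of its exon bases shared, and its call was lost in 5 of 6 fits that left out a library (highest adjusted p = 0.229) and with library totals. Cdc37 and Skp1a, the most abundant of the list, were not called, and nor were Cul1 and Fbxo4.

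E2F and mitotic target genes were lower in 27 of 31 cases (87.1%) and higher in 2 (6.45%), at a median of -3.10. Over all genes tested these shares were 32.1% and 31.6%. The higher count was 1 with library totals, upper quartile scaling, limma voom or a test against a 2-fold change. Of all 14734 genes tested 3177, 4452, 4883 and 3023 were higher in these settings, in that order. The list count was also 1 without cardiomyocyte library 1 or nonmyocyte library 2 or 3. Of all genes tested 5367 of 15828, 4621 of 15686 and 4619 of 15785 were higher there, in that order. Kif11, a spindle motor, fell furthest, with 5 counts over the cardiomyocyte libraries and 212 over the nonmyocyte libraries. Rrm1, a subunit of the enzyme that makes deoxynucleotides and the most abundant of the list, had 9.49, 11.7 and 11.4 CPM in cardiomyocytes and 75.8, 87 and 99 CPM in nonmyocytes. Pcna, the sliding clamp of DNA polymerases, was not called (-0.54 ± 0.24, adjusted p by edgeR = 0.0633), and nor was Pola1 (-0.52). Gmnn, which codes for geminin, a brake on replication licensing, went the other way at 17.8, 28.2 and 30.3 CPM in cardiomyocytes and 3.13, 6.28 and 3.73 CPM in nonmyocytes. Its log2 fold change was 2.56 ± 0.33 (adjusted p by edgeR = 1.89e-05), with 28.3% of its exon bases shared. Cenpa, the centromeric histone, was called higher from 93 counts in cardiomyocytes against 26 in nonmyocytes, and its call was lost in 3 of 6 fits that left out a library (highest adjusted p by edgeR = 0.194) and with library totals.

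The profiles most like those of 3 of the genes were found by the root mean square distance of log2 CPM, centred over the 6 libraries. Nearest to Ccnd1 among 7762 named genes of at least 10 CPM were Npdc1 (distance 0.118), Cotl1 (0.122) and Rhoj (0.124). Npdc1 had 9.88, 20.4 and 20.8 CPM in cardiomyocytes and 194, 175 and 175 CPM in nonmyocytes, with the same dip in cardiomyocyte library 1. Nearest to Cdk4 were Lrrc42 (0.077), Kdelr2 (0.090) and Tspo (0.097). Nearest to Ccna2, among 11130 genes of at least 1 CPM, were Spsb2 (0.143), Ifi30 (0.154) and Krt19 (0.163). All of these distances rest on the same 6 libraries, and no test was made of them.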

How the data were processed

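The authors deposited whole-number counts per gene, not normalised, for 6 libraries of polyadenylated RNA made without strand information, per the labels. Bowtie, TopHat 1.3.0, HTSeq, DESeq and edgeR and the build mm9 (NCBIM37) are named in the submitters' processing notes. What each tool did, how reads were filtered and how they were counted is not stated in the sources used here. Exon positions in mm9 come from the authors' deposited annotation.

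Genes passing filterByExpr (minimum count 10) were scaled with TMM and compared with edgeR 4.0.16 (robust quasi-likelihood test, R 4.3.3), and p-values were adjusted over all genes tested. The code was tested on simulated data with known fold changes. Few genes were changed there, equally often up and down, so scaling between fractions as different as these was not tested. CPM use TMM-scaled library sizes, and CPM per kb divide by the union of exons. Markers and lists were summed or counted, with no test of a set. Plots were drawn with matplotlib 3.10.9.

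The genes, lists and tests were chosen with earlier results of these data known. Named from each list were its 2 most abundant genes, those with the largest called fold each way, called genes against the majority, and uncalled genes where 4 or fewer. Rbl1, Rb1, Cdkn2b, Cdc20, Fbxo5 and Cdk9 were picked with their values in view. The alternatives tried were 3 other scalings (size factors of DESeq2, upper quartile, library totals), no filter, DESeq2 1.42.0, limma 3.58.1 voom, a test against a 2-fold change, a replicate block, each library left out and no mitochondrially encoded genes. For levels they were the longest transcript, no length and, chosen after the data were seen, unshared exon bases. Small RNA libraries were not used here.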

Additional observations from a re-analysis of the deposited data

How the results depend on the processing

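Of 150 fold changes of the 10 genes under 15 alternatives, 147 kept direction and call and none changed direction. The 3 others were Ccnd3 and Ccne2 against a 2-fold change and Cdk2 with library totals, all given above. The count of members lower stayed at 9 with each library left out (range 9 to 9, members higher 0 to 0). Pathway genes higher in cardiomyocytes numbered 15, but 9 with library totals and 6 against a 2-fold change. Over all genes tested 4657 were higher, 3177 with library totals and 3023 against a 2-fold change.

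Libraries with the same number correlated in their deviations from the group means at 0.162, 0.05 and 0.1. For numbers 1 and 3 this was the highest correlation either library had with the other fraction, for number 2 it was not. The labels do not say that numbers pair libraries, so the main fit left them unpaired. With the replicate block 9 members were lower and 0 higher.

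Shares of D-type cyclins depend on length. Without length correction cardiomyocytes stood at 21.1% Ccnd1, 35.3% Ccnd2 and 43.6% Ccnd3, and nonmyocytes at 34.2% Ccnd1, 55.7% Ccnd2 and 10.1% Ccnd3. In nonmyocytes Ccnd1 took 15.2% with the longest transcript and 18.2% with unshared exon bases, and Ccnd2 73.2% with the latter. The mean ratio of Cdk4 to Cdk6 was 38.2 in cardiomyocytes and 16.3 in nonmyocytes with the longest transcript, and 31.7 in cardiomyocytes and 13.5 in nonmyocytes without length. In the nonmyocyte order of levels 2 genes changed place with the longest transcript and 7 with unshared bases, and in cardiomyocytes none did.

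Depth limits Ccnb1 most, with 23 counts in all cardiomyocyte libraries.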
